A study of Homo sapiens with 36 samples.

Results

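CCL22, CCL24 and CCL17 are small secreted CC chemokines whose expression by macrophages is a usual sign of alternative activation, the state that interleukin-4 and interleukin-13 bring about. The members were chosen by their symbols and selected on detection: probes annotated to these symbols were kept with a detection p-value under 0.05 on 3 or more of the 36 arrays, with the probe of highest mean kept where a gene had several. Each gene had 1 probe, and 2 of the 3 genes, CCL22 and CCL24, passed among 13582 genes tested. CCL22 (probe ILMN_2160476, gene ID 6367) was detected on 35 arrays and CCL24 (ILMN_1653766, gene ID 6369) on 6. CCL17 (ILMN_1710186, gene ID 6361) was detected on 0 arrays, so CCL24 lies just inside that threshold and CCL17 outside it. In RefSeq's GRCh38.p14 annotation CCL22 lies at chr16:57357909-57366189 and CCL17 close by at chr16:57396093-57416063, while CCL24 lies at chr7:75810825-75823372.

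CCL22 and CCL17 are ligands of the receptor CCR4, which is carried by type 2 helper T cells, regulatory T cells and skin-homing T cells. CCL24, also called eotaxin-2, is a ligand of CCR3 and attracts eosinophils. Macrophages and mature dendritic cells make CCL22 and CCL17, and Toll-like receptor ligands as well as interleukin-4 can raise CCL22. The kinase p38, which SB203580 inhibits, acts downstream of Toll-like receptor 4 and affects both transcription and the stability of many cytokine and chemokine mRNAs.

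The samples were THP-1 cells, a human monocytic leukaemia line used as a model of monocytes, macrophages and microglia. A single cell line was used, with no differentiation step or interleukin-4 treatment among the groups. At each of 4 h and 24 h there were 6 groups with 3 biological replicates each: control, gp120, LPS, SB203580 (SB), SB+gp120 and SB+LPS. LPS, the bacterial lipopolysaccharide that activates Toll-like receptor 4, was given at 1 µg/ml, and the HIV envelope protein gp120 of strain SF162 at 1 nM. SB was added at 10 µM for 15 min before either stimulus, with 0.1% DMSO as the vehicle control for SB and 0.001% BSA as that for gp120. Expression was read from total RNA on the HumanHT-12 v4 bead array of Illumina.

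The RefSeq promoter windows of the 2 detected genes are shown because both genes responded to LPS and both were lower with SB at 4 h. Each window runs from 250 bases before to 50 after an annotated start and is written on the gene's strand, and CCL24 has 2 such starts. Capitals mark matches, on either strand, to 3 of the patterns searched: a loose form of the NF-kB site (GGG and CC with any 5 bases between), TGANTCA, the AP-1 site, and TTCNNNGAA, a STAT-type site. No AP-1 match overlapped a match to another pattern.
CCL22, chr16:57358533-57358832, plus strand: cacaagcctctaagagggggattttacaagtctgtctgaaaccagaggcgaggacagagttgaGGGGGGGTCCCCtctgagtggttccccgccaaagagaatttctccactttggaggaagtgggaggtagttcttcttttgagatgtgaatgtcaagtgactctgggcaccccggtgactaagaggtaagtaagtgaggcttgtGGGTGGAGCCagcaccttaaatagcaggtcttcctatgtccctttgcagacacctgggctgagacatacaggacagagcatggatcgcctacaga
CCL24 start 1, chr7:75823323-75823622, minus strand: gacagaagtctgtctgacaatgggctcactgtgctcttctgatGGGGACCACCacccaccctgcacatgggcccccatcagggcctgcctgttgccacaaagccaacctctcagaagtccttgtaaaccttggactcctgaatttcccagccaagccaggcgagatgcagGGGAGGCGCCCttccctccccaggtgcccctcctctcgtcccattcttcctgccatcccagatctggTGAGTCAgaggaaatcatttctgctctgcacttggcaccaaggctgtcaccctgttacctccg
CCL24 start 2, chr7:75813757-75814056, minus strand: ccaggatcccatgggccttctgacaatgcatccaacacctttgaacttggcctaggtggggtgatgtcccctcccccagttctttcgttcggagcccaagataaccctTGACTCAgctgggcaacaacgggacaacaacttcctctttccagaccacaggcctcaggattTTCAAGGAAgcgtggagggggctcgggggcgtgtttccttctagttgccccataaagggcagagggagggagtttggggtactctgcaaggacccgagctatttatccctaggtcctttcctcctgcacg
The CCL22 window held 4 matches to the loose NF-kB pattern, of which those at −187, −186 and −185 overlap, and none to the AP-1 or STAT-type patterns. The first CCL24 window held 3 NF-kB matches, the pair at −80 and −79 overlapping, and an AP-1 match at −13. The second CCL24 window held an AP-1 match at −142, a STAT-type match at −80 and no NF-kB match. Of the 35116 promoter windows in the table, 58.7% held the NF-kB pattern, 7.71% the AP-1 pattern and 7.66% the STAT-type pattern. The spaced STAT6 pattern (TTC and GAA with any 4 bases between), the interferon-factor pattern (a pair of GAAA with any 2 bases between), the cAMP-response pattern TGACGTCA and the box TATAAA were in none of the 3 windows, against 6.44%, 3.57%, 1.85% and 11.5% of all windows. A match describes these letters only and is not a measured binding site.

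Mean raw intensity per array ran from 403.4 to 1572, with 34.8% to 44.4% of probes detected, and the number of arrays limits the precision. The dimmest arrays were the first replicates of LPS 4 h and SB+LPS 4 h. Replicates correlated at 0.964 to 0.993. Of 12 monocytic markers, 10 were detected on all 36 arrays, CD33 had no probe here and MPO was detected on 15. Of 7 T cell markers, CD3E, CD3G and CD5 were detected on 0 arrays and the other 4 on 8 to 20, with a summed group level of 100 to 221 against 38324 to 105290 for the monocytic list. Of 5 B cell markers 3 were detected on 3 or more arrays (summed level 71.8 to 117), CD79A on as many as 31. Of 4 NK markers KLRF1 and NKG7 were detected on all 36 arrays and NCR1 and KLRD1 on 0 (summed level 279 to 1054). The arrays lay on 3 slides of 12. Slide 1 held control, gp120, LPS and SB at 24 h, slide 2 combined control and gp120 of 4 h with the 2 stimuli given after SB at 24 h, and slide 3 held the other 4 h groups. Comparisons across slides are therefore also comparisons of slides, and values with slide as a term, which borrow the LPS and SB effects across times, are given beside those that were called and those whose sign they turn. None of the other comparisons across slides was called with slide as a term.

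CCL22 was the more abundant of the detected pair and was present in resting cells. On the background-corrected, normalised log2 scale its 3 control arrays at 4 h were at 6.74, 6.57 and 6.05 (mean 6.45 ± 0.36, SD, n = 3). The control arrays at 24 h were at 6.30, 6.50 and 6.60 (6.47 ± 0.15). Over all arrays its mean of 6.93 exceeded that of 36.1% of the genes tested, although levels of different probes are only loosely comparable. The control means at the 2 times differed by 0.01 (adjusted p = 0.989). CCL24 differed by −0.25 (adjusted p = 0.669) between them, and neither gene was among the 9.33% called. With slide as a term the CCL22 value was −1.10 (adjusted p = 0.998).

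LPS raised CCL22 at both times. At 4 h the LPS arrays were at 9.98, 8.74 and 8.03 (8.92 ± 0.99), each above every control array. The difference from control was 2.46 (SE 0.505, 95% interval 1.43 to 3.50, adjusted p = 0.000505), or 5.52-fold. At 24 h the LPS arrays were at 11.46, 8.67 and 8.78 (9.63 ± 1.58), again all above the controls. The difference there was 3.17 (SE 0.505, 95% interval 2.13 to 4.20, adjusted p = 3.12e-05), or 8.98-fold, and both groups shared a slide. Adjusted p-values are limma's, with Benjamini-Hochberg adjustment over all 13582 genes, and a gene is said to have changed where it is under 0.05. By that measure 26.7% of all genes tested changed with LPS at 4 h and 11.9% at 24 h. Upward changes, as in CCL22 at both times and CCL24 at 4 h, made up 10.5% of all genes at 4 h and 6.6% at 24 h. In bulk RNA, fewer expressing cells and less RNA per cell cannot be told apart. With slide as a term the 4 h difference of CCL22 was 2.13 (adjusted p = 0.303).

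The spread of CCL22 within the LPS groups was wide. At 24 h the raw bead intensities of the LPS arrays were 2300.5, 453.6 and 453.8, against 180.6 to 188.6 in the controls. The first replicate thus stood 2.74 log2 units above the mean of the other two, the greatest such excess of any of the 13582 genes on that array. Over the 36 arrays the standard error of CCL22 over its 17 to 38 beads was 5.35% to 10.1% of the intensity. Without that array the LPS difference at 24 h was 2.25 (adjusted p = 0.000531). Over all 12 groups the pooled SD of CCL22 was 0.672, larger than that of 98.4% of genes tested.

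**Figure D1:**
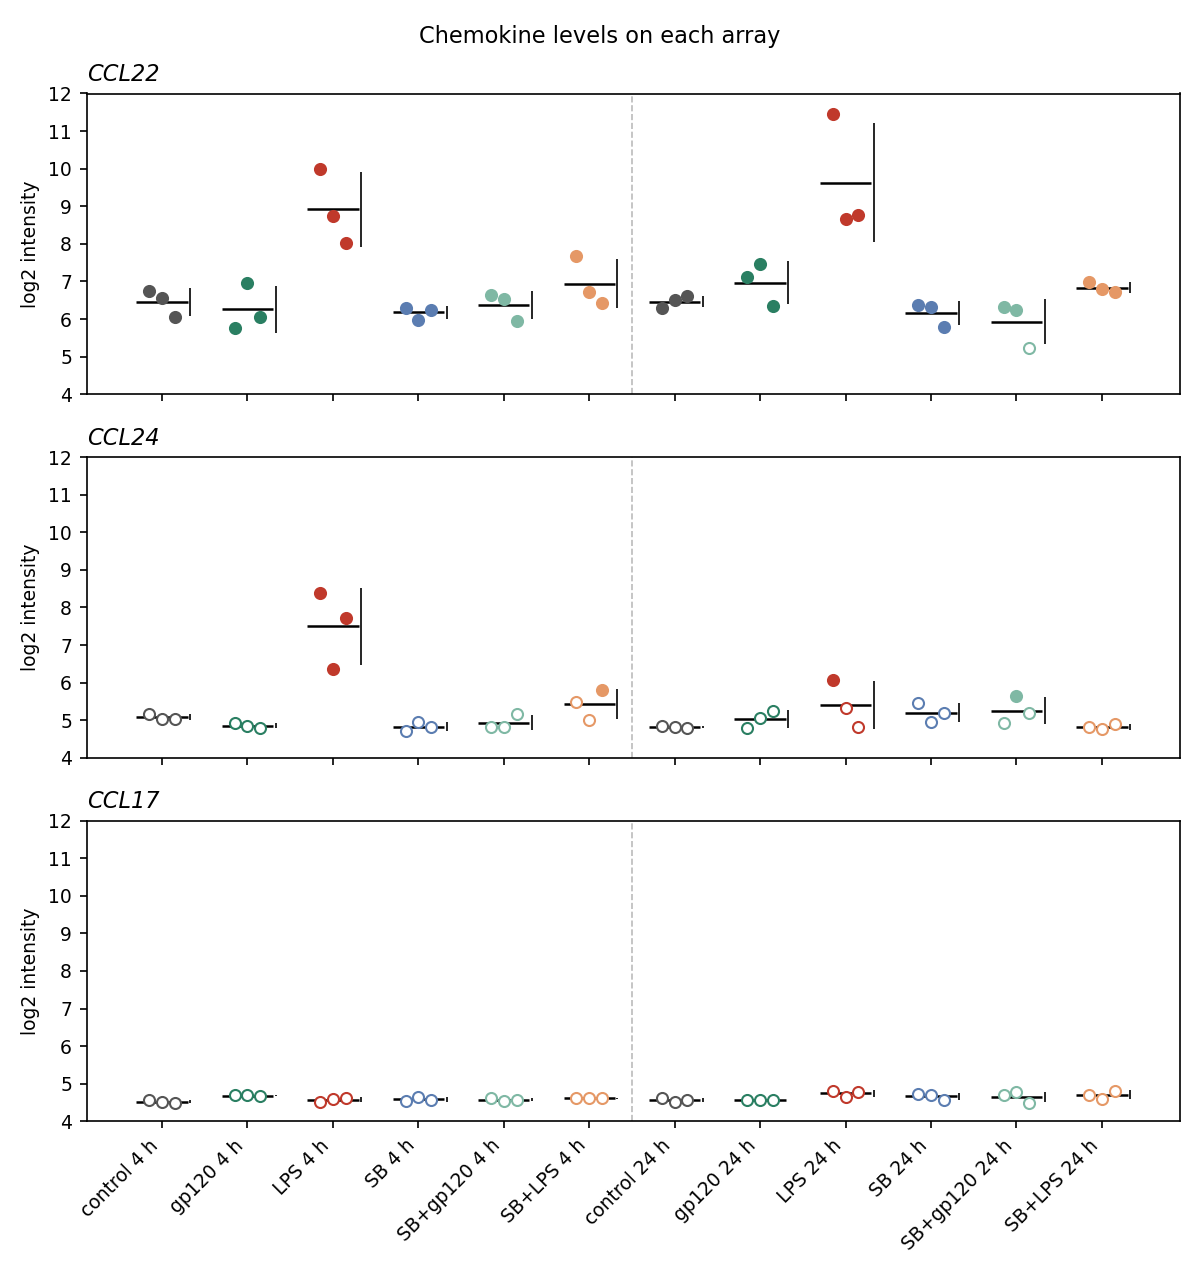
Normalised log2 intensity of CCL22, CCL24 and CCL17 on each of the 36 arrays by group, with the 4 h groups to the left of the dashed line and the 24 h groups to the right. Filled points were detected (p under 0.05), open points were not, horizontal bars are means and vertical bars are 1 SD over 3 arrays. CCL22 is highest in LPS at both times, CCL24 in LPS at 4 h, and CCL17 lies near the floor throughout.

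SB lowered CCL22 in LPS-treated cells at both times. The SB+LPS arrays at 4 h were at 7.67, 6.73 and 6.43 (6.94 ± 0.64), all below every LPS array of that time. The difference from LPS was −1.98 (SE 0.505, 95% interval −3.01 to −0.94, adjusted p = 0.0349), within 1 slide. At 24 h the SB+LPS arrays were at 6.99, 6.80 and 6.73 (6.84 ± 0.13), likewise all below the LPS arrays. The difference was −2.79 (SE 0.505, 95% interval −3.83 to −1.76, adjusted p = 0.00234). Of all genes 2.16% changed in this comparison at 4 h and 1.03% at 24 h. Falls, as in CCL22 at both times and CCL24 at 4 h, made up 1.16% of all genes at 4 h and 0.714% at 24 h. With the replicate number as a block the call of CCL22 held at both times, while the gene count rose from 294 to 562 at 4 h and from 140 to 260 at 24 h.

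The fall at 4 h was close to the threshold and that at 24 h crossed slides. At 4 h its adjusted p was 0.221 without the first LPS replicate, 0.0533 without the second, and 0.0883 and 0.122 without the second and the third SB+LPS replicates. It was 0.597 with the 2 groups fitted alone, 0.0952 with arrays scaled to equal medians and 0.178 without the 2 dimmest arrays, a setting added after the data were seen. At 24 h the difference was −1.88 (adjusted p = 0.0352) without the first LPS replicate and −1.67 (adjusted p = 0.999) with slide as a term, and the adjusted p was 0.0742 with the 2 groups fitted alone.

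SB alone gave CCL22 values near the controls. The SB arrays were at 6.31, 5.97 and 6.24 at 4 h (6.18 ± 0.18) and at 6.37, 6.32 and 5.78 at 24 h (6.16 ± 0.33). The differences from control, −0.28 at 4 h (adjusted p = 0.999) and −0.31 at 24 h (adjusted p = 0.935), were not called, where 0.14% and 0.913% of genes were. CCL22 in SB+LPS minus that in SB alone was 0.76 at 4 h (95% interval −0.27 to 1.80, adjusted p = 0.338) and 0.68 at 24 h (95% interval −0.35 to 1.71, adjusted p = 0.595). Neither passed the test, in comparisons where 15.6% and 5.23% of genes did. At both times every SB+LPS array lay above every SB array, within 1 slide at 4 h and across slides at 24 h. With the 2 groups fitted alone the 24 h difference was called. The test of the difference in LPS response with and without SB gave −1.70 at 4 h (SE 0.715, adjusted p = 0.614) and −2.49 at 24 h (SE 0.715, adjusted p = 0.258). That interaction thus missed the threshold for CCL22 at both times, with 0.14% and 0.133% of genes called.

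CCL24 was measured above background on 6 arrays, of which 3 were those of LPS at 4 h. The control arrays at 4 h were at 5.17, 5.05 and 5.03 (5.08 ± 0.08) and those at 24 h at 4.86, 4.83 and 4.81 (4.83 ± 0.03), none of them detected. The LPS arrays at 4 h were at 8.39, 6.37 and 7.73 (7.50 ± 1.03), all detected and all above the controls. The remaining detected arrays were 1 each in SB+LPS 4 h, LPS 24 h and SB+gp120 24 h. In the groups without detection the values given are background readings, not measured levels. The upper bound there is the lowest detected signal, 5.55 on average for the 4 h controls and 5.66 for the 24 h controls. The filter CCL24 passed counts the LPS 4 h arrays in which it was high.

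LPS raised CCL24 at 4 h by 2.42 (SE 0.310, 95% interval 1.78 to 3.05, adjusted p = 8.23e-07). Since no control array was detected, the ratio of group means is at least 3.85-fold, computed against the dimmest detected probes of those arrays. That bound allows for background but not for the spread of the LPS arrays. With slide as a term the difference was 1.08 (adjusted p = 0.422). At 24 h the LPS arrays were at 6.07, 5.33 and 4.81 (5.40 ± 0.63), and the lowest of them lay at the level of the lowest control. The difference of 0.57 (95% interval −0.06 to 1.21, adjusted p = 0.277) was not called.

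The test of the LPS response of CCL24 between times was called, but it was detected on 0 of the 6 control arrays and 1 of the 3 LPS 24 h arrays, so its size rests on groups near background. The 24 h response minus the 4 h response was −1.84 (SE 0.438, 95% interval −2.74 to −0.95, adjusted p = 0.00525), in a test that called 12.2% of genes, 4.87% in this direction. Within the LPS groups CCL24 was lower at 24 h than at 4 h by −2.09 (adjusted p = 5.47e-06), where 31.1% of all genes changed and 13.3% of all genes fell. For CCL22 the same values were 0.70 (adjusted p = 0.584) and 0.72 (adjusted p = 0.3), and both turned sign, to −0.21 and −0.20, without the first LPS 24 h replicate. With slide as a term the CCL24 interaction was −0.51 (adjusted p = 0.818) and the LPS time difference −1.23 (adjusted p = 0.215), while the LPS time difference of CCL22 was −0.070 (adjusted p = 0.98).

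SB lowered CCL24 in LPS-treated cells at 4 h. The SB+LPS arrays were at 5.49, 5.02 and 5.80 (5.44 ± 0.39), all below the LPS arrays. The difference was −2.06 (SE 0.310, 95% interval −2.69 to −1.43, adjusted p = 0.000322) within 1 slide. CCL24 was detected on 1 of the 3 SB+LPS arrays, so the size of the fall is that of values mostly at background and no fold is given. It was −1.64 (adjusted p = 0.0186) without the 2 dimmest arrays and lost the call with the 2 groups fitted alone (adjusted p = 0.576). SB+LPS differed from SB alone by 0.61 at 4 h (95% interval −0.02 to 1.24, adjusted p = 0.195). The LPS by SB interaction at 4 h was −1.81 (SE 0.438, adjusted p = 0.128) and so missed the threshold. Without the second LPS replicate, the lowest of that group, it was −2.37 (adjusted p = 0.000419). That was the 1 call among 12 fits that each left out 1 array, and this interaction also crossed slides.

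At 24 h CCL24 gave no called difference with SB. The SB+LPS arrays were at 4.81, 4.76 and 4.90 (4.82 ± 0.07), none detected, and the difference from LPS was −0.58 (95% interval −1.22 to 0.05, adjusted p = 0.59). SB+LPS minus SB alone was −0.37 (adjusted p = 0.659), or 0.10 (adjusted p = 0.986) with slide as a term, and the LPS by SB interaction was −0.95 (adjusted p = 0.822). SB alone differed from control by −0.25 at 4 h (adjusted p = 0.999) and 0.36 at 24 h (adjusted p = 0.815). The test of whether the SB difference in LPS-treated cells changed with time gave 1.48 for CCL24 (adjusted p = 0.16) and −0.82 for CCL22 (adjusted p = 0.764), and it called 0.493% of genes.

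**Figure D2:**
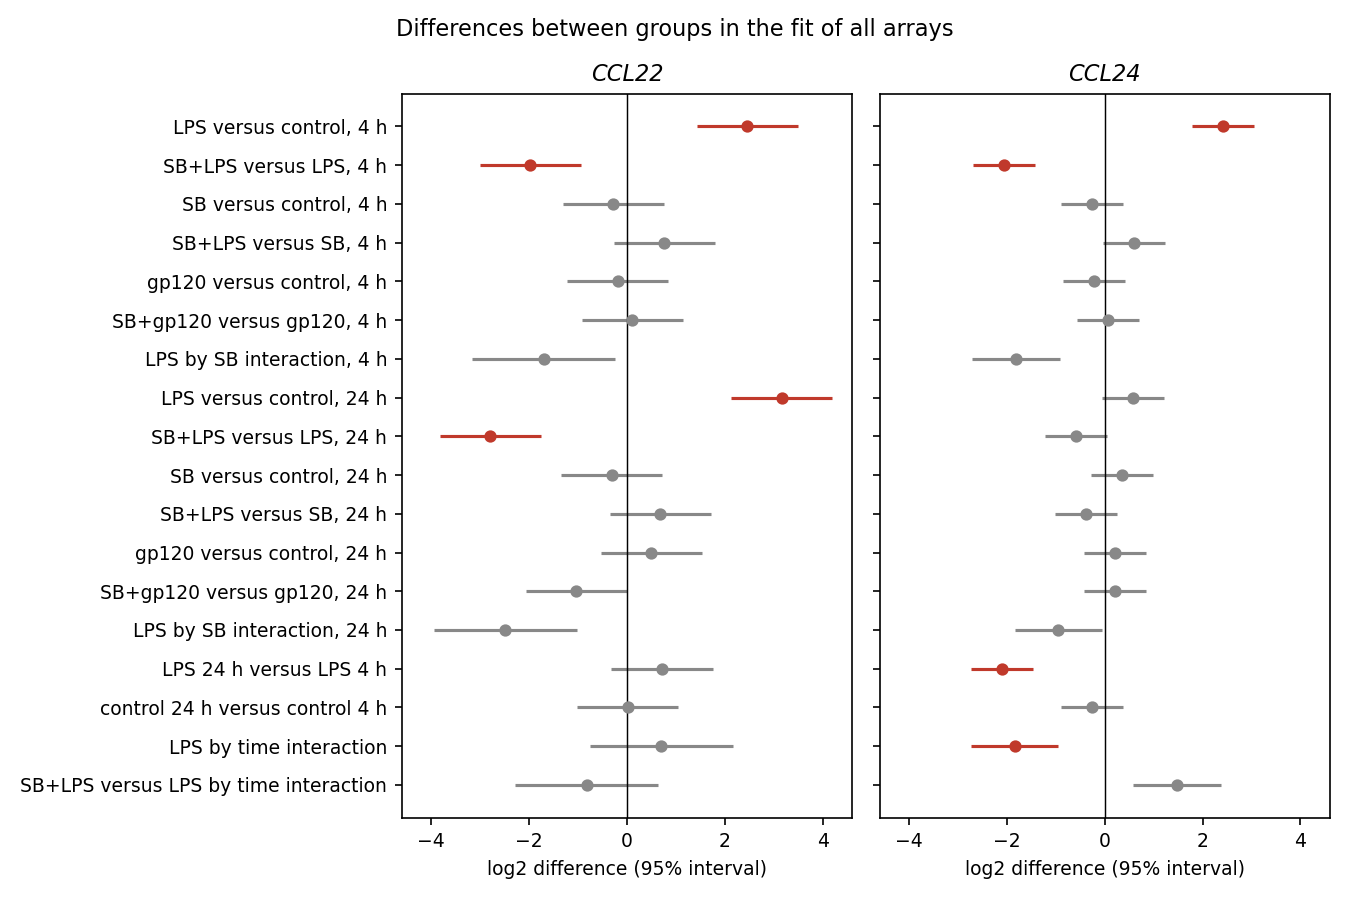
Differences between groups in log2 intensity for CCL22 (left) and CCL24 (right), with 95% intervals from the fit over all 36 arrays. Red marks an adjusted p under 0.05 over all genes tested and grey the rest. LPS versus control and SB+LPS versus LPS are called at both times for CCL22 and at 4 h for CCL24, whose LPS 24 h versus 4 h and LPS by time values are also called, and SB+LPS versus SB is called for neither gene.

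The raw bead intensities of CCL24 showed how close it lay to background. In LPS at 4 h they were 203.2, 160.2 and 262.3, and in SB+LPS they were 106.4, 95.8 and 126. The standard error over beads was 5.11% to 13.1% of the intensity for CCL24, on 11 to 35 beads per array. For CCL22 the raw values in LPS at 4 h were 439.1, 449.2 and 298.8, and in SB+LPS 149.4, 150.9 and 143.9. The SB+LPS values of CCL22 at 4 h were narrower raw than after normalisation, where the first replicate, the dimmest array of all, stood highest. The first LPS replicate at 4 h, the next dimmest array, was likewise highest for both genes after normalisation but for neither gene raw.

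**Figure D3:**
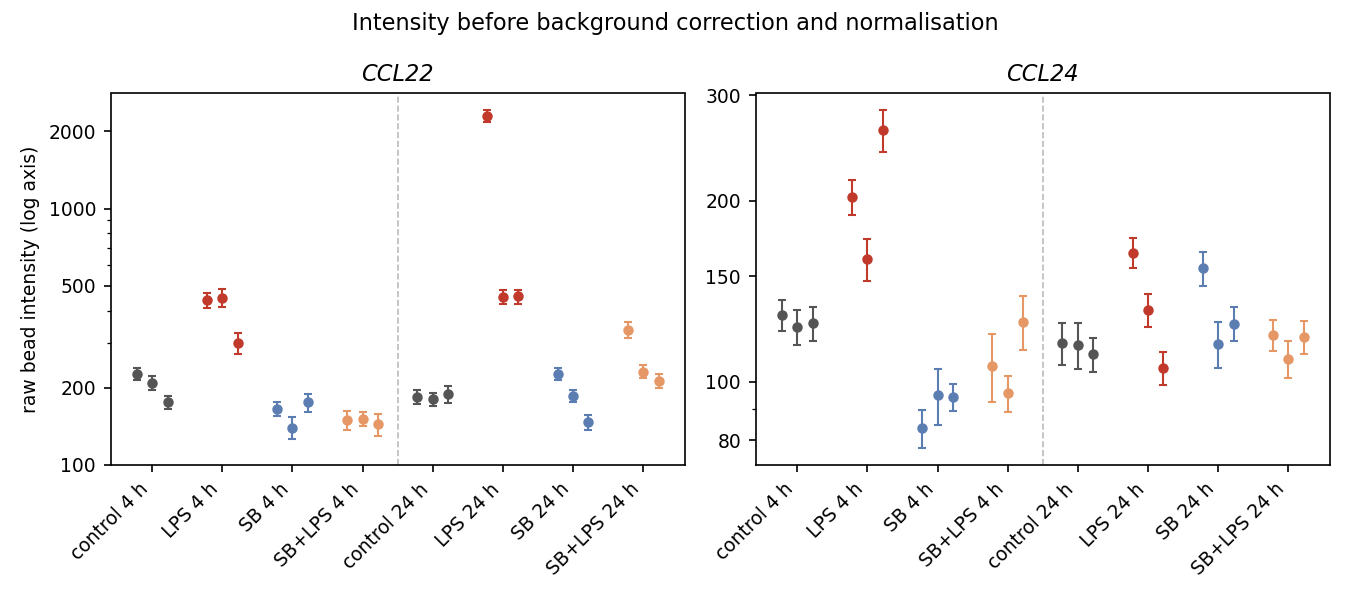
Raw bead intensity (log axis) of CCL22 and CCL24 on each array of the control, LPS, SB and SB+LPS groups, before background correction and normalisation; bars are 1 standard error over the beads of that array. The LPS 24 h array of CCL22 at 2300.5 stands far above the other 2 of its group, and the 3 LPS 4 h arrays of CCL24 lie above the 3 SB+LPS arrays.

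CCL17 was not above background in any group. Its raw intensities ran from 53.7 to 113.6 and its lowest detection p-value was 0.666. Group means on the normalised scale lay between 4.52 and 4.75, below the mean of every gene tested, and the pooled SD was 0.0739. Without the detection filter, over 20045 genes, its greatest difference was 0.18 for LPS against control at 24 h (adjusted p = 0.233), and 0 of the 18 comparisons were called. With no array above background its level could not be measured here, which does not show that the mRNA was absent.

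gp120 gave no called difference for these genes. CCL22 was at 5.77, 6.97 and 6.06 after 4 h of gp120 (6.27 ± 0.62) and at 7.11, 7.46 and 6.34 after 24 h (6.97 ± 0.57). The differences from control were −0.19 (adjusted p = 1) and 0.50 (95% interval −0.53 to 1.54, adjusted p = 0.999). For CCL24 they were −0.22 (adjusted p = 1) and 0.21 (adjusted p = 0.999). With limma 0 genes, 0%, were called for gp120 at either time, and 261 and 405 genes had an unadjusted p under 0.05 at 4 h and 24 h. These were 1.92% and 2.98% of all genes, fewer than that threshold passes on average with no effect.

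With SB and gp120 CCL22 was at 6.65, 6.53 and 5.96 at 4 h and at 6.33, 6.23 and 5.24 at 24 h, the last of which was the array without detection. Against gp120 alone the 4 h difference was 0.11 (adjusted p = 0.993), where 0.184% of genes were called. At 24 h it was −1.04 (95% interval −2.07 to −0.00, adjusted p = 0.249), and the arrays of the 2 groups did not overlap, in a comparison that called 4.64% of genes. For CCL24 these differences were 0.07 (adjusted p = 0.992) and 0.22 (adjusted p = 0.754). Both comparisons crossed slides, and with slide as a term CCL22 turned to −0.22 at 4 h and 0.083 at 24 h, and CCL24 to −1.26 at 4 h, none called.

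Ordered by group mean, CCL22 was highest in LPS at 24 h (9.63) and then LPS at 4 h (8.92), a gap of 0.72 that lay within their SDs. A gap of 1.95 separated these from gp120 at 24 h (6.97), followed within the SDs by SB+LPS at 4 h and 24 h. The gap of 0.37 from SB+LPS 24 h down to control 24 h exceeded both SDs, and every later neighbour down to SB+gp120 at 24 h (5.93) lay within its neighbour's SD. For CCL24 the only gap between neighbours beyond their SDs was that of 2.06 between LPS 4 h and SB+LPS 4 h, and the other 10 groups lay between 4.82 and 5.40. Over the 12 group means the 2 genes correlated at r = 0.640 and rho = 0.329, and over the 36 arrays, after removal of group means, at r = 0.371; both genes were read on the same arrays.

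The counts of called genes in the gene lists stand against 26.7% and 11.9% of all genes called with LPS at 4 h and 24 h, with all-gene medians of −0.09 and −0.06. With SB in LPS-treated cells the shares were 2.16% and 1.03% and the medians 0.01 and 0.02, so that a count of 0 in a list of this length is near the background and says nothing particular about the list. CCL22 and CCL24 were set against other CC chemokines, a list of 25 of which 13 were tested. LPS raised 9 and lowered 1 of the 13 at 4 h, and raised 8 and lowered 1 at 24 h, with list medians of 1.39 and 2.26 (26.7% and 11.9% of all genes called). CCL4L1 and CCL3, of the macrophage inflammatory proteins, were higher by 7.95 and 6.57 at 4 h, and CCL20, the ligand of CCR6, by 7.11. At 24 h CCL2, the main monocyte attractant, was higher by 7.99. With SB, 0 of these 13 were called in LPS-treated cells at either time (2.16% and 1.03% of all genes), and the list medians were 0.15 and −0.02. Their SB differences ran from −0.34 for CCL1 to 1.14 for CCL2 at 4 h, and from −1.53 for CCL8 (adjusted p = 0.132) to 0.73 for CCL5 at 24 h. CCL26, the other eotaxin tested and a chromosome 7 neighbour of CCL24, differed by 0.23 and 0.30 with LPS and by 0.17 and −0.37 with SB in LPS-treated cells, none of them called. CCL4L1, CCL3L1 and CCL3L3 are near-identical copies of other genes, so their probes may share signal.

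Of 10 receptors, decoy receptors and processing enzymes of the 3 chemokines, 5 were tested; the CCR4 probe was detected on 0 arrays and CCR3 was not analysed here. ACKR2, a scavenging receptor that takes up inflammatory CC chemokines, fell with LPS by 2.16 at 4 h and by 1.17 at 24 h. DPP4, the peptidase that trims the amino end of CCL22, fell by 1.00 at 24 h, while CPM, a membrane carboxypeptidase, rose by 1.64. ADAM17, a membrane sheddase, rose by 1.04 at 4 h. With SB in LPS-treated cells 0 of the 5 were called at either time (2.16% and 1.03% of all genes). Among 10 tested neighbours in the chemokine clusters of both chromosomes, PLLP rose by 1.33 at 4 h and none was called in the other 3 of these comparisons; CX3CL1, which lies between CCL22 and CCL17, was detected on 0 arrays.

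The interleukin-4 and interleukin-13 signalling list had 15 of 18 genes tested. With LPS 6 rose and 2 fell at 4 h, and 4 rose and 0 fell at 24 h, with medians of 0.54 and 0.35 (26.7% and 11.9% of all genes called, medians −0.09 and −0.06). KDM6B, a histone H3 lysine 27 demethylase of alternative activation, rose by 2.36 and SOCS1, a feedback inhibitor of cytokine signalling, by 1.57 at 4 h. KLF4, a transcription factor of alternative activation in mouse macrophages, fell by 1.54 at 4 h and rose by 1.47 at 24 h. IL4R, the receptor chain for both cytokines, rose by 1.21 at 24 h. With SB in LPS-treated cells 0 of the 15 were called at either time (2.16% and 1.03% of all genes).

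Of 42 other markers of alternative activation 26 were tested. LPS raised 3 and lowered 3 at 4 h, and raised 6 and lowered 3 at 24 h, with medians of −0.05 and 0.29. At 4 h the 6 of 26 called are a smaller share than the 26.7% of all genes, and 11.9% of all genes were called at 24 h. IL1RN, the interleukin-1 receptor antagonist, rose by 1.50 and 2.47 at these times, and the haemoglobin scavenger receptor CD163 rose by 1.56 at 24 h. F13A1, the coagulation factor XIII A chain, fell by 2.72 at 24 h. With SB in LPS-treated cells the 1 gene called was IL1RN at 4 h, at −0.74 (adjusted p = 0.0251), and 0 were called at 24 h.

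Dendritic-cell maturation genes, which are known to be induced together with CCL22 and CCL17 in mature dendritic cells, had 13 of 16 tested. LPS raised 10 and lowered 1 at 4 h and raised 12 and lowered 0 at 24 h, with medians of 1.64 and 1.91 (26.7% and 11.9% of all genes called). EBI3, a subunit of interleukin-27 and interleukin-35, rose by 7.43 and 7.46, and the costimulatory receptor CD40 by 4.52 and 2.23. With SB in LPS-treated cells 1 was called at each time (2.16% and 1.03% of all genes): CCR7, the lymph node homing receptor, at 4 h (−1.66, adjusted p = 0.00751) and CD86, a costimulatory ligand, at 24 h (−1.11, adjusted p = 0.0136).

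The list of NF-kB subunits and inhibitors had 11 of 11 tested. LPS raised 10 and lowered 0 at 4 h and raised 8 and lowered 0 at 24 h, with medians of 2.59 and 1.74, led by NFKB2 at 4.56 and by BCL3 at 4.20. With SB in LPS-treated cells 0 were called, with medians of −0.17 and −0.15. The p38 module had 15 of 18 genes tested: LPS raised 4 and lowered 2 at 4 h, and raised 3 and lowered 1 at 24 h, against 26.7% and 11.9% of all genes called. MAP2K3, a kinase that activates p38, rose by 1.89 at 4 h. SB in LPS-treated cells raised ELAVL1, an mRNA-stabilising protein (1.00, adjusted p = 0.0343), and lowered ATF2, a transcription factor that p38 phosphorylates (−0.97, adjusted p = 0.00613), at 4 h, and 0 of the module were called at 24 h (2.16% and 1.03% of all genes).

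Genes whose profile was most like each chemokine were taken by Pearson's r over the 12 group means, as a description. For CCL22 they were BMF (0.948), BMPER (0.933), COL6A1 (0.930), CCR7 (0.925) and TMEM52B (0.922). All 5 had their highest mean in LPS at 24 h, as CCL22 did, which the choice by likeness favours. For CCL22 that order rests on the first LPS 24 h array, without which LPS 24 h minus LPS 4 h was −0.20. CCR7 was also high on that array, by 2.09 above the mean of the other replicates. CCR7 differed between LPS and control by 1.71 at 4 h and 1.97 at 24 h. For CCL24 they were FAM186B (0.961), LRRC32 (0.957), PGLYRP2 (0.955), EID3 (0.949) and COL5A2 (0.945), all highest in LPS at 4 h. EID3 had the widest range of these, with 3.54 more in LPS than in control at 4 h and −3.06 between SB+LPS and LPS. At 24 h the LPS difference of these 5 lay between 0.03 for LRRC32 and 0.15 for COL5A2. CCL24 stood apart in LPS at 4 h alone, so genes chosen by likeness to it tend to differ little at 24 h.

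**Figure D4:**
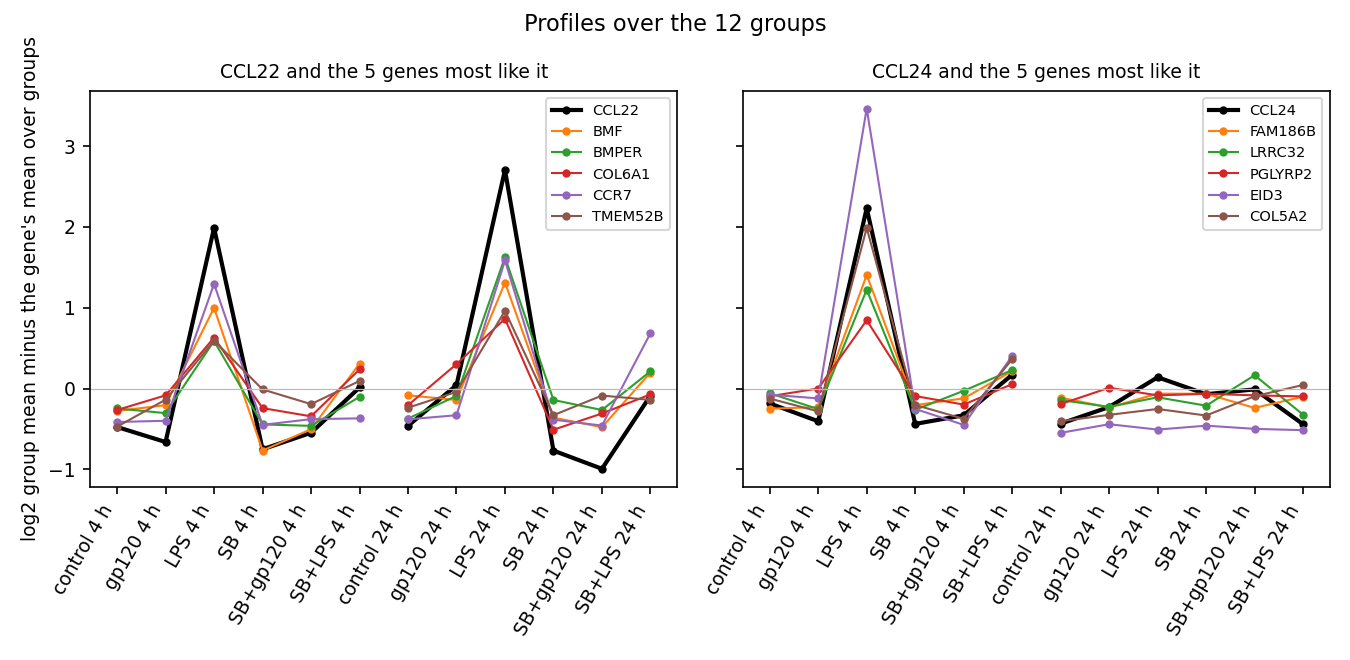
Group means of CCL22 and CCL24 (black) and of the 5 genes with the highest Pearson's r to each (colours), as log2 intensity minus the gene's own mean over the 12 groups. The genes on the left peak in LPS at both times with the higher peak at 24 h, and those on the right peak in LPS at 4 h.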

How the data were processed

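The deposited files hold, for 36 arrays and 47222 probes, raw bead intensity with detection p-values, bead numbers and, as a signal spread, the bead standard error, and a table of log2 values normalised by the authors in GeneSpring, per the labels and the file headers. The authors' log2 values matched log2 of quantile-normalised raw intensity within 0.098, so their log base and centring were read from the data. From the raw intensity, background was corrected with detection p-values and arrays were quantile normalised with neqc (offset 16) in limma 3.58.1 under R 4.3.3. Probe symbols came from the platform annotation: 30112 probes had 1 symbol, 8 several and 17102 none. Genes detected (p under 0.05) on 3 or more arrays were tested through their highest-mean probe, with 1 mean per group over 36 arrays and 18 contrasts. Variances were moderated, p-values had Benjamini-Hochberg adjustment and all tests were two-sided. In simulated data whose noise was independent between arrays, the fit called most of the larger planted changes. No minimum was set for the smaller ones. That simulation held no slide or replicate effect, so it cannot check the fit against either. The smallest exact permutation p for 3 arrays against 3 is 0.1, so no permutation test was used. Fold bounds compare the bright group's mean with the dim group's mean of the lowest detected signal, and carry no sampling error.

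The members and gene lists were chosen with earlier results of these data known, so their p-values are not independent support. The genes named are the members, the 5 genes most like each, up to 4 called genes per list, and list members not called only where their role with a member makes them of interest. Same-numbered replicates correlated over 0.1 in their deviations from group means, for each of the 3 numbers, in 6 of 6 comparisons at 4 h (0.123 to 0.696). At 24 h this held in 1 of 6 (0.00547 to 0.355). By that rule the numbers were read as pairing the samples at 4 h. The main fit left that pairing out and the replicate blocks included it. The alternatives were the background correction, scaling, the authors' values, the detection filter, the probe rule, replicate and slide blocks, the groups fitted, a variance trend, and leaving out arrays.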

Additional observations from a re-analysis of the deposited data

Results flagged for a closer look

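The LPS response of CCL24 differed between 4 h and 24 h, and this difference was tested directly by an interaction term. The response was 2.42 at 4 h and 0.57 at 24 h, a difference of −1.84 on the log2 scale (adjusted p = 0.00525, limma). All 3 LPS arrays at 4 h lay above the 3 controls of that time, whereas at 24 h the groups overlapped. CCL24 was detected in 1 of the 3 LPS arrays at 24 h and in 0 of the 6 control arrays, so 3 of the 4 groups in this test lay at or near background and the size of the difference is approximate. The 4 h comparison crossed slides and the 24 h comparison did not, and with slide as a term the difference was −0.51 (adjusted p = 0.818).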

How the results depend on the processing

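With slide as a block the differences were 2.13 for CCL22 and 1.08 for CCL24 (LPS against control, 4 h), −1.67 for CCL22 (SB+LPS against LPS, 24 h), −1.23 for CCL24 (LPS 24 h against 4 h) and −0.51 for CCL24 (LPS by time), none called. The sign turned there for SB+gp120 against gp120 at 4 h (CCL22 −0.22, CCL24 −1.26) and 24 h (CCL22 0.083), CCL24 in SB+LPS against SB at 24 h (0.10), and CCL22 in LPS (−0.070) and control (−1.10) 24 h against 4 h, all uncalled. That model has no term for the SB difference in LPS-treated cells by time, which was not run. Scaled to equal medians, CCL22 gave −2.02 (adjusted p = 0.0952) for SB+LPS against LPS at 4 h, 0.00099 for SB against control at 24 h and −0.36 for the controls over time. With only the groups compared, calls were lost for SB+LPS against LPS at 4 h (CCL22 −1.98, CCL24 −2.06) and 24 h (CCL22 −2.79, adjusted p = 0.0742) and for CCL24 by time (−1.84, adjusted p = 0.0685), while CCL22 in SB+LPS against SB at 24 h (0.68, adjusted p = 0.0414) was called. Without the 2 dimmest arrays, chosen after seeing the data, CCL22 gave −1.80 (adjusted p = 0.178) for SB+LPS against LPS at 4 h. The replicate block over all arrays changed no call (CCL22, SB+LPS against LPS, adjusted p = 0.00831 at 4 h and 0.00026 at 24 h); within time it changed none either and turned the CCL22 control time difference to −0.014 (adjusted p = 0.989). The range of group means was 2.56 for CCL22 and 1.49 for CCL24 without background correction and 2.49 and 1.45 in the authors' values, against 3.70 and 2.67, and 2.18 for CCL24 at equal medians. The cause was not tested. The other settings, no detection filter, a detection p under 0.01, the mean of a gene's probes and a variance trend, kept the direction and the call in 36 of 36 tests. Each gene had 1 probe, so these settings left its differences unchanged and could not turn a direction. Only the moderated variance and the adjustment over genes could move the call. With a detection p under 0.01, CCL24 passed the filter on 3 arrays, all of them LPS 4 h. Its kept calls in that setting are therefore no further support.

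Leaving out each array in turn, CCL22 ranged from −2.42 to −1.44 for SB+LPS against LPS at 4 h and from −3.28 to −1.88 at 24 h, from 2.25 to 3.65 for LPS at 24 h, from −0.54 to 0.062 for gp120 at 4 h, from −0.13 to 0.46 for SB+gp120 against gp120 at 4 h, from −0.19 to 0.16 for control over time, from −0.20 to 1.25 for LPS over time, from −0.21 to 1.23 for LPS by time and from −1.35 to 0.094 for the SB difference by time. The last 3 turned sign without LPS 24 h replicate 1. CCL24 ranged from −2.37 to −1.36 for LPS by SB at 4 h, from −0.039 to 0.14 for SB+gp120 against gp120 at 4 h and from 1.03 to 2.04 for the SB difference by time, the first and last called without LPS 4 h replicate 2.

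Counts of called genes moved more. For LPS against control at 4 h they ran from 425 (slide) to 6482 (equal medians) around 3628, and at 24 h from 692 (equal medians) to 2695 (block within time) around 1614. For SB+LPS against LPS they ran from 0 (groups alone) to 953 (block within time) around 294 at 4 h, and from 0 (slide) to 438 (block within time) around 140 at 24 h. For LPS by time they ran from 116 (slide) to 2767 (block within time) around 1662. At equal medians the share called higher with LPS was 8.35% at 4 h, against 39.2%, and 76.3% at 24 h, against 55.6%, and the median of all genes at 4 h was −0.71 against −0.09. For SB+LPS against LPS the share higher went from 46.6% to 6.9% at 4 h and from 30.7% to 78.1% at 24 h, with medians of all genes of −0.18 and 0.53. CCL22 and CCL24 differences at equal medians, 1.69 and 1.91 for LPS at 4 h, are to be read against those shifts.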

Other observations

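On the first LPS 24 h array, CCL22 was followed in its excess over the mean of the other 2 replicates by IL1A (2.65), which encodes interleukin-1 alpha, CXCL2 (2.25), a neutrophil attractant, and ORM1 (2.23), an acute-phase protein. CCL8 (2.20), MMP9 (2.18), PARM1 (2.12) and CCR7 (2.09) came next. These 8 genes exceeded 2 log2 units on that array, and 1 gene lay below −2. They were named after their values were seen. In LPS at 4 h the first replicate of CCL22 stood 1.60 above the mean of the other 2 arrays on the normalised scale. It was not the highest raw, at 439.1 against 449.2 in the second replicate, and it was among the 2 dimmest arrays. For CCL24 it was the second replicate that stood apart, at −1.68 from the other 2.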
